A study of Homo sapiens with 32 samples.

Results

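To analyze how far the transcriptional response of intestinal epithelial cells to the HoxBan system depended on HIF1A, the response was compared between Caco-2 control cells and Caco-2-HIF1A-null cells. The comparison used 18 of the 32 libraries of the study, taken by their labels: 9 from each line, of which 3 were grown in 2D, 3 in HoxBan monoculture and 3 in HoxBan coculture with Faecalibacterium prausnitzii. The HoxBan response of a line is the mean of its monoculture and coculture groups minus its 2D group, on the log2 scale. The quantity described here, the interaction, is the response of HIF1A-null cells minus that of control cells. For a gene that rises in HoxBan, a negative interaction is a smaller rise in HIF1A-null cells.

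Caco-2 is a line from a human colon adenocarcinoma that takes on features of enterocytes, the absorptive cells of the small intestine. Control cells (labelled e.v.) carried an inducible Cas9 and an empty vector. HIF1A-null cells (labelled cl.21) carried the same Cas9 and a guide against HIF1A, and the label names 1 clone for all of their libraries, so what the edit did and what else set this clone apart cannot be told apart. In HoxBan, cells on a coverslip lay face down on agar that had set in an anaerobic cabinet, under medium in a loosely capped tube, for 18 h. The agar held F. prausnitzii, a butyrate-producing gut commensal, in coculture and none in monoculture. No label or method gives the duration or the oxygen of the 2D cultures. The HoxBan response therefore holds together the tube, the agar medium, the oxygen supply and the time in culture, which cannot be told apart.

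Hypoxia-inducible factor 1 is a transcription factor of an oxygen-regulated α subunit, encoded by HIF1A, and a constant partner, encoded by ARNT. With oxygen, prolyl hydroxylases encoded by the EGLN genes mark the α subunit for destruction through VHL, and a hydroxylase encoded by HIF1AN blocks its activity. In low oxygen the α subunit accumulates and the pair binds short motifs near genes of glycolysis, cell survival, angiogenesis and collagen modification. The intestinal epithelium lives beside an anaerobic lumen and is a tissue in which these factors act without disease.

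Counts came from QuantSeq, a method that reads the 3′ end of polyadenylated transcripts, so that counts stand for transcripts with little effect of their length. Levels are CPM, counts scaled to 1000000 counts of a library after TMM scaling. The 18 libraries held 4144373 to 6686797 counts (median 4873702). Mitochondrial genes took 4.49 to 17.1% of the counts in 2D and 7.91 to 23.6% in HoxBan. Control monoculture replicate 11 stood apart before any gene was singled out: over the 2991 genes that responded in both lines it showed 0.69 of the response of the other 5 control HoxBan libraries, against 0.97 to 1.11 for each of those and 0.86 to 1.09 for the HIF1A-null libraries. All 12 epithelial and enterocyte markers passed the filter on low counts, with summed levels of 4594 to 7521 CPM in control cells and 3598 to 5524 CPM in HIF1A-null cells. By edgeR at an adjusted p under 0.05, 0 of the 12 were higher and 3 lower in HIF1A-null cells in HoxBan, beside 2.67% and 2.58% of all genes. Of 11 immune markers 3 passed, with summed levels of 26.3 to 50.7 CPM in control cells and 9.00 to 26.6 CPM in HIF1A-null cells, most of it LYZ, and HBB, MS4A1 and NKG7 were at 0 in all 18 libraries. Of 11 fibroblast and endothelial markers 4 passed (29.1 to 61.9 CPM), and of 17 markers of goblet, Paneth, tuft and enteroendocrine cells 4 passed (24.3 to 86.1 CPM). LYZ stood on this last list as well as on the immune list. KDR, NEUROD1 and TRPM5 were at 0 throughout. In bulk RNA, fewer cells of a type and less RNA per cell cannot be told apart.

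The HoxBan response was large in both lines and mostly shared. With edgeR's quasi-likelihood test over 12565 genes, 2140 genes rose and 2253 fell in control cells (35.0% of genes tested), and 1853 rose and 1869 fell in HIF1A-null cells (29.6%). Rises and falls were thus 17.0% and 17.9% of genes in control cells and 14.7% and 14.9% in HIF1A-null cells. Counts of list members below are to be read beside these shares. Without control monoculture replicate 11, the control response had 2177 genes higher and 2426 lower. The 2D groups of 3 weighed more: without control 2D replicate 26, 1382 genes rose in control cells, and without HIF1A-null 2D replicate 1 or 2, 1129 or 1177 rose in HIF1A-null cells. Both responses passed for 2991 genes, which were 68.1% of the control calls and 80.4% of the HIF1A-null calls, with 1452 higher and 1539 lower and 0 in opposite directions. The direction of these counts rested on the scaling. With library size alone, 879 genes were higher and 4145 lower in control cells and 906 higher and 3340 lower in HIF1A-null cells, as the median of all genes then moved to −0.29 and −0.23 log2, and changes below are relative to the TMM scale.

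No gene passed the test of the interaction. Of 12565 genes, 0 (0%) had an adjusted p under 0.05 by edgeR, by DESeq2 or by limma-voom, and 304 (2.42%), 291 (2.32%) and 323 (2.57%) had an unadjusted p under 0.05. Chance alone gives a share of about 0.05, so each tool found fewer small p-values than that, and the cause was not tested. A count of 0 calls is thus not a finding of equal responses. The tools differed in how near they came to a call, with a smallest adjusted p of 0.0855 by DESeq2, 0.9998 by edgeR and 0.9997 by limma-voom. The genes with an unadjusted p under 0.001 numbered 7, 3 and 1. Without control monoculture replicate 11, 2 genes passed, ANKRD37 and HILPDA, both with a smaller rise in HIF1A-null cells, and with any other 1 library left out 0 genes passed. Among the 2991 genes called in both lines, 1888 (63.1%) had the smaller estimate in HIF1A-null cells. The medians of the risers were 0.88 log2 in control cells and 0.86 in HIF1A-null cells, and those of the fallers −1.04 and −0.92. Control libraries of 2D and HoxBan enter both the choice of these genes and the comparison, so this share is a description.

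The width of the 95% intervals shows how closely the interaction of each gene was estimated. The median standard error of the interaction was 0.30 log2, and for 8151 genes (64.9%) the whole interval lay within 2-fold in either direction. This held for 93.0% of the 3677 genes with a mean of 50 CPM or more, for 72.5% of the 6257 genes between 5 and 50 CPM, and for 7.56% of the 2631 genes under 5 CPM. A 2-fold difference between the responses was not detectable at this depth for most genes under 5 CPM. The intervals take 1 gene at a time and are not adjusted over all genes, so a narrow interval is not a power to pass the test. Above 5 CPM larger estimates did not pass either, as for ANKRD37 (mean 30.3 CPM, −3.55 log2) and HILPDA (mean 51.6 CPM, −1.66 log2). The labels do not say whether replicate libraries are separate cultures, and p-values then measure only the spread between libraries, which may be technical.

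Genes of the oxygen sensing system responded in both lines. Of 12 HIF subunit and oxygen sensor genes tested, 3 rose and 6 fell in control cells, 3 rose and 5 fell in HIF1A-null cells, and 0 passed the interaction (median 0.052 log2, against 0.011 over all genes). HIF1A itself (ENSG00000100644) had 155, 180 and 147 CPM in control 2D, 187, 235 and 350 CPM in monoculture and 305, 275 and 246 CPM in coculture. In HIF1A-null cells it had 90.2, 82.6 and 87.1 CPM in 2D, 172, 159 and 197 CPM in monoculture and 215, 160 and 139 CPM in coculture. HIF1A-null libraries lay below control libraries in 2D, and the groups overlapped in HoxBan. HIF1A rose by 0.76 ± 0.17 (SE) log2 in control cells and by 1.03 ± 0.17 in HIF1A-null cells, with an interaction of 0.27 (95% interval −0.23 to 0.77). A 3′ read lies far from the edited exon, so these reads do not check the edit.

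EGLN1, the prolyl hydroxylase with the main role in oxygen sensing, fell in both lines. It had 45.1, 44.9 and 42.8 CPM in control 2D and 14.6 to 24.4 CPM in the 6 control HoxBan libraries, and 35.3, 31.2 and 27.9 CPM in HIF1A-null 2D and 9.13 to 14.9 CPM in HoxBan. No HoxBan library reached a 2D library of its line, and the changes were −1.16 ± 0.15 log2 (adjusted p = 8.00e-06, edgeR) and −1.34 ± 0.16 (adjusted p = 3.55e-06). HIF1AN, which encodes the asparagine hydroxylase, fell by 1.14 on the log2 scale in control cells and by 1.08 in HIF1A-null cells, with an interaction of 0.06 (−0.31 to 0.43). EGLN2 fell by 0.59 and by 0.66. EGLN3, the hydroxylase that HIF1 induces, was at 0.152 to 0.616 CPM in the 6 libraries in 2D and at 0.712 to 2.56 CPM in the 12 in HoxBan, and rose by 2.20 ± 0.69 and 1.83 ± 0.56 log2. Its interaction of −0.36 had an interval from −2.21 to 1.48, so a loss or a gain of several fold was not detectable at this level. VHL and EPAS1, the gene of HIF2α, passed neither response, and their interactions were 0.052 (−0.32 to 0.43) and 0.029 (−0.50 to 0.56) log2.

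Known HIF1 targets are described here in 3 sets. The first holds genes that rose in HoxBan in control cells and were lower in HIF1A-null cells there. The second holds genes that both 2D and HoxBan showed lower in HIF1A-null cells, and the third other genes that rose in both lines. The sets order the description and are not exclusive. A gene of the third may also be lower in HIF1A-null cells in HoxBan, one of the first may rise in both lines, and some, such as ENO2, fall in none. Of 37 targets outside glycolysis, 12 rose and 4 fell in control cells and 9 rose and 3 fell in HIF1A-null cells. In the WT cells described below, 2 targets of this list rose and 6 fell. Between genotypes, 0 were higher and 4 lower in HIF1A-null cells in 2D, and 0 were higher and 15 lower in HoxBan. Over all genes, 78 of 12565 (0.621%) were lower in 2D and 324 (2.58%) in HoxBan. Of 32 genes of glucose uptake, glycolysis and pyruvate control, 4 were lower in 2D and 10 in HoxBan, and 0 were higher. Of these 69 targets together, 8 were called lower in both cultures, 17 in HoxBan alone and 44 in neither. HoxBan has 6 libraries a line and 2D has 3, and a call in one culture and not in the other is not a difference between them, for which the interaction is the test. Without control replicate 11, 16 members of the first list and 11 of the second were lower in HoxBan.

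Promoters of genes of the first and second sets are shown because HIF1 binds the core ACGTG or GCGTG. The 250 bases before the start of each gene were taken from RefSeq on GRCh38.p14 and read 5′ to 3′ on the strand of the gene, with every ACGTG or GCGTG on either strand in capitals, where a match on the other strand reads CACGT or CACGC and CACGTG, which is also a motif of other factors, holds both. ANKRD37 at chr4:185396591-185396840 (plus strand) and BHLHE40 at chr3:4979187-4979436 (plus strand) are of the first set, and PLOD2 at chr3:146161185-146161434 (minus strand) and BNIP3 at chr10:131981924-131982173 (minus strand) of the second set.
ANKRD37: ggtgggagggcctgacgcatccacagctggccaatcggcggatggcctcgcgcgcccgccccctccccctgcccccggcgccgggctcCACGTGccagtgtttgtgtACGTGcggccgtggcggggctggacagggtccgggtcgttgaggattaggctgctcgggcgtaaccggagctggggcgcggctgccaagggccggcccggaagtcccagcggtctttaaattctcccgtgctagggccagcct
BHLHE40: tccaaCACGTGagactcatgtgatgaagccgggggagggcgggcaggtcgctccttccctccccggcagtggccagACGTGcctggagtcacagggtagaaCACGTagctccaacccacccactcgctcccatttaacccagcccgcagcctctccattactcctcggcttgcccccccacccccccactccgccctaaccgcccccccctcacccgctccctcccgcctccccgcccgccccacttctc
PLOD2: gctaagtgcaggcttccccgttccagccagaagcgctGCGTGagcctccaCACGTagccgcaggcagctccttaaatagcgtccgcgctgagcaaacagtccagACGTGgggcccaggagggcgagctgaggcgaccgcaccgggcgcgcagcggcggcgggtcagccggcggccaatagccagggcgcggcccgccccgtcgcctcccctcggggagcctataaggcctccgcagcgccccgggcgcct
BNIP3: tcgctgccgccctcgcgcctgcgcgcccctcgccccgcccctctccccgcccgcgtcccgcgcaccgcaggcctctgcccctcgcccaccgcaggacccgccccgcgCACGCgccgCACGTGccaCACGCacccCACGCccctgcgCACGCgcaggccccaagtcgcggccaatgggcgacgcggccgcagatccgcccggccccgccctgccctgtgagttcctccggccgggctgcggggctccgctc
These promoters, printed as examples, held 3, 4, 3 and 6 matches. Among other genes of these sets P4HA1 held 1, the listed starts of TXNIP 2 and 1, and those of LDHA 5 and 1. Of all 35116 promoters of that length in the table, 15172 (43.2%) held at least 1 match and 7.76% held 3 or more, and of the 14050 promoters of genes tested 55.4% held at least 1 and 11.3% held 3 or more. Among promoters of the target list outside glycolysis 34 of 40 (85.0%) held at least 1, and among those of the glycolysis list 33 of 60 (55.0%), where a gene may have several listed starts. The shares with 3 or more were 35.0% and 15.0%. A match is a description of these letters and not a bound site.

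ANKRD37, which encodes a small ankyrin repeat protein and is a strongly hypoxia-induced gene, had the smallest interaction p of all genes. It had 6.92, 5.32 and 5.68 CPM in control 2D, 10.3, 88.4 and 138 CPM in monoculture and 81.5, 83.6 and 77.1 CPM in coculture. In HIF1A-null cells it had 5.32, 6.09 and 3.23 CPM in 2D, 6.07, 3.83 and 9.49 CPM in monoculture and 4.91, 5.71 and 3.80 CPM in coculture. The lines overlapped in 2D, and in HoxBan every control library lay above every HIF1A-null library, with control replicate 11 close to them. The gene rose by 3.77 ± 0.49 log2 in control cells (adjusted p = 2.54e-05, edgeR), and its change in HIF1A-null cells was 0.22 ± 0.55 (adjusted p = 0.802). The interaction was −3.55 (−5.08 to −2.02, unadjusted p = 0.000107), with an adjusted p of 1.00 over all genes. It was −3.32 ± 0.82 with monoculture alone and −3.79 ± 0.86 with coculture alone. Without replicate 11 it was −3.82 ± 0.36 with an adjusted p of 2.08e-05, and leaving out other libraries gave values up to −3.22.

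HILPDA, which encodes a lipid droplet protein that inhibits triglyceride breakdown and stood on the list of fatty acid genes, rose in both lines and to a lower level in HIF1A-null cells. Control cells had 18.9, 12.5 and 15.5 CPM in 2D, 40.9, 119 and 131 CPM in monoculture and 124, 121 and 103 CPM in coculture. HIF1A-null cells had 14.0, 14.5 and 17.6 CPM in 2D, 38.3, 26.6 and 34.7 CPM in monoculture and 28.1, 40.3 and 29.2 CPM in coculture. The lines overlapped in 2D and did not overlap in HoxBan, where replicate 11 (40.9 CPM) lay just above the highest HIF1A-null library (40.3 CPM). The rise was 2.79 ± 0.26 log2 in control cells and 1.13 ± 0.27 in HIF1A-null cells, and the interaction −1.66 (−2.44 to −0.88, unadjusted p = 0.000278, adjusted p = 1.00 by edgeR), which did not pass. Without replicate 11 it was −1.84 ± 0.24 with an adjusted p of 0.00160.

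BHLHE40, a transcriptional repressor of the circadian and hypoxic response, rose in both lines, to a lower level in HIF1A-null cells. It was at 5.68 to 7.10 CPM in control 2D and 4.16 to 5.78 CPM in HIF1A-null 2D, and at 25.4, 67.4 and 50.7 CPM in control monoculture and 56.8, 50.6 and 29.6 CPM in coculture. HIF1A-null cells had 17.1, 11.7 and 17.3 CPM in monoculture and 14.7, 9.35 and 17.2 CPM in coculture, below every control HoxBan library. The responses were 2.89 ± 0.29 and 1.58 ± 0.30 log2 and the interaction −1.31 (−2.18 to −0.45, unadjusted p = 0.00499), which did not pass. TXNIP, which restrains glucose uptake, rose by 1.36 ± 0.28 log2 in control cells, with 0.56 ± 0.28 (adjusted p = 0.150) in HIF1A-null cells and an interaction of −0.80 (−1.62 to 0.021). It was lower in HIF1A-null cells in HoxBan (−1.87 ± 0.23 log2, adjusted p = 5.08e-05), with 54.5 to 123 CPM against 148 to 443 CPM.

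In glycolysis, ENO2, which encodes an isoform of enolase, rose by 1.93 ± 0.38 log2 in control cells, with 0.29 ± 0.33 (adjusted p = 0.545) in HIF1A-null cells. Its levels were 2.55, 2.83 and 3.84 CPM in control 2D and 5.75 to 23.8 CPM in control HoxBan, and 9.89, 6.72 and 4.62 CPM in HIF1A-null 2D and 6.75 to 12.9 CPM in HIF1A-null HoxBan. The 2D level was thus nominally higher in HIF1A-null cells (1.20 log2, adjusted p = 0.264), and the interaction of −1.64 (−2.69 to −0.60, unadjusted p = 0.00349) holds this difference as well as that in HoxBan (−0.44, adjusted p = 0.410). PFKFB3, which makes an activator of glycolysis, rose by 1.13 ± 0.26 log2 in control cells and had 0.32 ± 0.27 in HIF1A-null cells, with an interaction of −0.81 (−1.60 to −0.017). PDK1, the kinase that turns off pyruvate dehydrogenase, went the other way. It had 60.1, 33.4 and 59.8 CPM in control 2D and 41.5 to 97.9 CPM in control HoxBan, and 16.6, 11.4 and 10.8 CPM in HIF1A-null 2D and 24.9 to 33.2 CPM in HIF1A-null HoxBan. It rose in HIF1A-null cells by 1.17 ± 0.24 log2 (adjusted p = 0.00177), against 0.36 ± 0.22 in control cells, and stayed lower in the null line throughout (−1.98 in 2D and −1.17 in HoxBan). PKM and AK4 had interactions of −0.42 and 0.37 log2, with intervals that held 0.

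A further group was lower in the null line in 2D and in HoxBan and did not respond to HoxBan past the threshold in either line. These genes, and those of the next paragraph, were chosen after their values were seen, except PGK1. PLOD2, a lysyl hydroxylase of collagen, had 109, 115 and 126 CPM in control 2D and 109 to 217 CPM in control HoxBan, and 30.9, 28.5 and 14.9 CPM in HIF1A-null 2D and 23.4 to 37.6 CPM in HIF1A-null HoxBan. No HIF1A-null library reached a control library, the differences were −2.22 log2 in 2D and −2.32 ± 0.18 in HoxBan, and the interaction was −0.10 (−0.75 to 0.55). BNIP3, a mitochondrial protein of mitophagy, was at 10.0 to 15.3 CPM in HIF1A-null 2D and 12.7 to 16.7 CPM in HIF1A-null HoxBan against 27.2 to 81.7 CPM in control libraries, with differences of −1.81 and −1.79 log2 and an interaction of 0.023 (−0.75 to 0.79). P4HA1, a subunit of collagen prolyl hydroxylase, differed by −1.13 and −1.41 log2, and LDHA, which makes lactate, by −0.89 and −1.13. In one fit of 28 libraries that adds WT cells, the 2D differences of BNIP3, P4HA1 and LDHA had adjusted p-values of 0.236, 0.136 and 0.167. PGK1, a glycolytic kinase, was lower in HIF1A-null cells in HoxBan (−0.70 ± 0.14, adjusted p = 0.00462), with −0.44 (adjusted p = 0.493) in 2D and an interaction of −0.26 (−0.77 to 0.24).

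Other targets rose in both lines, and a shared rise does not mean equal levels. ADM, the gene of the vasoactive peptide adrenomedullin, had 13.7, 24.8 and 14.7 CPM in control 2D and 52.0 to 82.2 CPM in control HoxBan, and 10.6, 9.51 and 14.9 CPM in HIF1A-null 2D and 30.3 to 51.8 CPM in HIF1A-null HoxBan. HoxBan libraries lay above 2D libraries in each line, with rises of 1.97 ± 0.21 and 1.83 ± 0.22 log2 and an interaction of −0.14 (−0.76 to 0.49). Every control HoxBan library lay above every HIF1A-null HoxBan library for ADM, the closest being 52.0 and 51.8 CPM. DDIT4, an inhibitor of mTORC1, rose by 2.04 ± 0.27 and 1.47 ± 0.28 log2 (interaction −0.57, −1.38 to 0.24). HK2, the inducible hexokinase, rose by 1.68 ± 0.23 and 1.61 ± 0.25 (interaction −0.067, −0.78 to 0.65), and SLC2A3, a glucose transporter, by 1.04 ± 0.17 and 1.29 ± 0.17 (interaction 0.25, −0.26 to 0.75). The paper lists DDIT4 and HK2 as lower in HIF1A-null than in control cells in coculture. VEGFA, the angiogenic factor, lay between 56.0 and 86.6 CPM in all 18 libraries, passed neither response and had an interaction of 0.037 (−0.35 to 0.42).

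IL18, the gene of an epithelial cytokine that the inflammasome activates, rose in both lines. It had 12.7, 12.8 and 14.2 CPM in control 2D, 31.3, 22.0 and 17.7 CPM in monoculture and 30.1, 31.1 and 34.7 CPM in coculture, and 5.93, 10.1 and 3.85 CPM in HIF1A-null 2D, 14.1, 11.5 and 13.5 CPM in monoculture and 9.27, 15.1 and 14.5 CPM in coculture. All control HoxBan libraries were above all HIF1A-null HoxBan libraries, and in 2D the lines did not overlap either. The rise was 1.09 ± 0.23 log2 in control cells (adjusted p = 0.00165) and 0.98 ± 0.25 in HIF1A-null cells (adjusted p = 0.00684). The interaction was −0.11 (−0.82 to 0.61), and leaving out 1 library at a time moved it from −0.38 to 0.35. Its genotype difference was −1.08 ± 0.19 in HoxBan (adjusted p = 0.00174) and −0.97 in 2D (adjusted p = 0.138). Of the 5 genes of the IL-18 and inflammasome list that were tested, 2 rose and 1 fell in control cells and 1 rose in HIF1A-null cells. CASP4, an inflammatory caspase, rose by 0.54 ± 0.19 log2 in control cells (interaction −0.15, −0.71 to 0.42). GSDMD, which encodes the pore-forming gasdermin D, fell by 0.85 on the log2 scale in control cells, with −0.14 ± 0.23 in HIF1A-null cells and an interaction of 0.70 (0.017 to 1.39, unadjusted p = 0.0443).

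Immediate early genes, which respond within minutes to signals at the cell surface, gave the largest shared rises. Of 28 tested, 21 rose and 1 fell in each line, with median responses of 1.76 and 1.72 log2 and a median interaction of 0.084. FOS, a subunit of the AP-1 factor, had 1.46, 0.665 and 0.836 CPM in control 2D and 47.4 to 110 CPM in control HoxBan, and 2.89, 2.28 and 1.69 CPM in HIF1A-null 2D and 29.3 to 83.8 CPM in HIF1A-null HoxBan. It rose by 6.26 ± 0.48 and 4.32 ± 0.34 log2, and the interaction of −1.94 (−3.17 to −0.71, unadjusted p = 0.00248) drew on levels under 3 CPM in 2D, where HIF1A-null libraries lay above control libraries, as well as on HoxBan. JUN, its partner, rose by 2.90 ± 0.22 and 3.21 ± 0.22 (interaction 0.31, −0.34 to 0.96). SGK1, a stress-regulated kinase, rose by 1.02 and 1.32, and IER5 by 1.40 and 1.19.

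NF-kB targets and cytokines also rose in both lines, 11 of 16 in each, with medians of 1.32 and 1.63 log2 and a median interaction of 0.37, which was 0.16 without HIF1A-null monoculture replicate 7. TNFAIP3, which encodes the NF-kB inhibitor A20, had 20.4, 29.7 and 25.6 CPM in control 2D and 36.2 to 88.6 CPM in control HoxBan, and 11.9, 13.2 and 14.8 CPM in HIF1A-null 2D, 66.1, 138 and 63.0 CPM in monoculture and 52.6, 60.8 and 55.5 CPM in coculture. It rose by 1.30 ± 0.26 and 2.44 ± 0.27, with an interaction of 1.14 (0.36 to 1.93, unadjusted p = 0.00666) that was 0.91 without replicate 7. That library was highest also for NFKBIA (283 CPM, other HIF1A-null HoxBan libraries 70.3 to 127) and for the chemokine gene CXCL2 (49.3 CPM, others 1.64 to 9.61). Without it the interaction of NFKBIA went from 0.48 to 0.14 and that of CXCL2 from 1.91 to 0.43. ICAM1, an adhesion molecule, rose by 1.07 ± 0.28 in control cells and had an interaction of −0.54 (−1.35 to 0.27).

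The list of the aryl hydrocarbon receptor, a sensor of plant and bacterial compounds that shares the partner ARNT with HIF1α, and of xenobiotic metabolism had positive interaction estimates for 7 of 7 genes tested (median 0.20), against 6507 of 12565 genes overall. Without control 2D replicate 26, 4 of these estimates were positive and 3 negative (median 0.14). In each line 3 of the 7 genes rose and 1 fell, beside rises of 17.0% of all genes in control cells and 14.7% in HIF1A-null cells. TIPARP, which feeds back on the receptor, had 29.5, 28.6 and 25.1 CPM in control 2D and 181 to 455 CPM in control HoxBan, and 22.8, 19.4 and 28.6 CPM in HIF1A-null 2D and 294 to 608 CPM in HIF1A-null HoxBan. The lines overlapped in HoxBan. The rises were 3.63 ± 0.22 and 4.35 ± 0.22 log2 and the interaction 0.72 (0.066 to 1.37, unadjusted p = 0.0328). AHR itself rose by 0.69 ± 0.25 and 0.94 ± 0.25.

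Growth factor and growth arrest genes held members that rose in both lines, beside rises of 17.0% of all genes in control cells and 14.7% in HIF1A-null cells. Among 8 genes of the EGF receptor family 4 rose and 2 fell in each line. HBEGF, a ligand of the receptor, rose by 3.71 ± 0.21 and 3.41 ± 0.21 log2 (interaction −0.30, −0.92 to 0.32), and ERBB2, a receptor, fell by 1.25 in control cells and by 0.95 in HIF1A-null cells. EGFR passed neither response. Of 19 cell cycle inhibitors and p53 targets 10 rose in control cells and 9 in HIF1A-null cells. GADD45B, a stress sensor, had 4.01 to 5.65 CPM in control 2D and 110 to 240 CPM in control HoxBan, 3.23 to 4.44 CPM in HIF1A-null 2D and 195 to 248 CPM in HIF1A-null HoxBan, with the smallest values of control HoxBan in replicates 11 and 22. Its rises were 5.25 ± 0.24 and 5.83 ± 0.25 log2. CDKN2D, a CDK4 inhibitor, rose by 4.06 ± 0.32 and 3.37 ± 0.29. Of 13 replication-dependent histone genes 9 rose in control cells and 6 in HIF1A-null cells. H3C10 rose by 5.99 ± 0.52 and 4.86 ± 0.51, with an interaction of −1.13 (−2.65 to 0.38). These are counts of polyadenylated transcripts, and histone transcripts without that tail were not measured, so the rises do not stand for all transcripts of these genes.

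Many interferon-stimulated genes, which respond to virus and interferon, were lower in HIF1A-null cells in HoxBan. Of 37 tested, 11 rose in control cells and 6 in HIF1A-null cells, with medians of 0.61 and 0.12 log2, and 29 of 37 interaction estimates were negative (median −0.31, 0 called). Of all genes 17.0% and 14.7% rose, and 6058 of 12565 interaction estimates were negative. Between genotypes 4 were lower in 2D and 23 in HoxBan, against 0.621% and 2.58% of all genes, with 3 libraries a line in 2D and 6 in HoxBan. OAS3, a sensor of double-stranded RNA, had 54.8, 85.1 and 40.6 CPM in control 2D and 60.3 to 206 CPM in control HoxBan, and 31.3, 35.1 and 25.6 CPM in HIF1A-null 2D and 27.3 to 42.3 CPM in HIF1A-null HoxBan. It rose by 0.98 ± 0.32 in control cells, with 0.15 ± 0.34 in HIF1A-null cells and an interaction of −0.83 (−1.80 to 0.14). UBE2L6, a conjugating enzyme for ISG15, rose by 0.79 ± 0.22 in control cells (interaction −0.66, −1.36 to 0.03). LYZ, on the immune list and on that of goblet, Paneth, tuft and enteroendocrine cells, was also lower in HIF1A-null cells in HoxBan (−1.79 ± 0.27). Its levels there were 6.54 to 14.2 CPM against 21.6 to 43.7 CPM in control cells. The immune markers HBB, MS4A1 and NKG7 were at 0 in every library. The part of other cell types in these values was not tested beyond these markers.

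Among 36 genes of the integrated stress and unfolded protein response 15 rose and 3 fell in control cells and 13 rose and 4 fell in HIF1A-null cells. Over all genes, 17.0% rose and 17.9% fell in control cells, and 14.7% rose and 14.9% fell in HIF1A-null cells. CHAC1, which degrades glutathione, had 4.55, 3.82 and 2.17 CPM in control 2D and 7.94 to 19.8 CPM in control HoxBan, and 12.8, 8.12 and 9.08 CPM in HIF1A-null 2D and 8.73 to 27.0 CPM in HIF1A-null HoxBan. It was higher in HIF1A-null cells in 2D (1.51 log2, adjusted p = 0.0246) and had 0.30 (adjusted p = 0.493) in HoxBan. It rose by 1.88 ± 0.30 in control cells, with 0.67 ± 0.26 (adjusted p = 0.0575) in HIF1A-null cells and an interaction of −1.21 (−2.04 to −0.38, unadjusted p = 0.00618). ASNS, asparagine synthetase, passed neither response and had an interaction of −0.73 (−1.34 to −0.12). Of the enzymes of the mitochondrial folate cycle, MTHFD2 rose by 0.83 and 0.44 log2 and SHMT2 passed neither response.

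Most ribosomal protein genes and nuclear genes of the respiratory chain had small negative interaction estimates. The counts of rises that follow stand beside 17.0% of all genes in control cells and 14.7% in HIF1A-null cells. Of 36 ribosomal protein genes 34 rose in control cells and 20 in HIF1A-null cells, and 33 of 36 interaction estimates were negative, with a median of −0.14 log2. Without 1 of the control 2D libraries (replicate 26) 13 rose in control cells, and without 1 of the HIF1A-null 2D libraries (replicate 1) 5 rose in HIF1A-null cells. Without replicate 26, 24 of the 36 interaction estimates were negative and 12 positive, with a median of −0.045. Without replicate 1, 34 were negative and 2 positive, with a median of −0.14. RPS15 had 559 to 642 CPM in control 2D and 832 to 1125 CPM in control HoxBan, and 721 to 908 CPM in HIF1A-null 2D and 707 to 1063 CPM in HIF1A-null HoxBan. Its interaction was −0.56 (−0.98 to −0.14, unadjusted p = 0.0110). Of 37 nuclear genes of the respiratory chain 9 rose in control cells and 3 rose and 1 fell in HIF1A-null cells, and 34 of 37 estimates were negative (median −0.15), as for COX7B (−0.36, −0.75 to 0.039) and COX6C (−0.36). Of 15 mitochondrially encoded genes 4 rose in control cells and 3 in HIF1A-null cells, with a median interaction of −0.66. That median was −1.57, with 15 of 15 estimates negative, without control 2D replicate 26, and 0.43, with 14 of 15 positive, without HIF1A-null 2D replicate 1. MT-ND4 had an interaction of −1.16 (−2.98 to 0.65) that went from −2.21 to 0.14 with 1 library left out. These genes share libraries in which the mitochondrial part of the counts ranged from 4.49 to 23.6%, and its part in the values was not tested.

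Lists of lipid metabolism and of the enterocyte are given next, beside falls of 17.9% of all genes in control cells and 14.9% in HIF1A-null cells. Of 26 genes of fatty acid oxidation, ketogenesis and PPAR signalling 3 rose and 7 fell in control cells and 2 rose and 7 fell in HIF1A-null cells. PPARGC1B, a coactivator of mitochondrial and lipid genes, had 31.1, 36.9 and 37.3 CPM in control 2D and 3.40 to 11.5 CPM in control HoxBan, and 29.7 to 41.1 CPM in HIF1A-null 2D and 10.9 to 30.0 CPM in HIF1A-null HoxBan. It fell by 2.20 on the log2 scale in control cells and by 0.98 in HIF1A-null cells, with an interaction of 1.22 (0.46 to 1.98, unadjusted p = 0.00319). PPARA, the receptor that drives fatty acid oxidation, fell by 2.16 and by 1.70. DGAT2, the last enzyme of triglyceride synthesis, fell by 2.35 and by 2.66, and ACACB, which makes the malonyl-CoA that holds back oxidation, by 1.66 and by 0.98. Of 31 enterocyte genes 2 rose and 8 fell in control cells and 1 rose and 6 fell in HIF1A-null cells. HNF4A, the main transcription factor of the enterocyte, fell by 0.98 and by 0.54 (interaction 0.44, −0.021 to 0.90). SI, sucrase-isomaltase, passed neither response and was higher in HIF1A-null cells in HoxBan (1.35 ± 0.23, interaction 0.81). KRT20, a keratin of differentiated cells, rose by 1.57 ± 0.55 in control cells at levels of 0.364 to 3.77 CPM (interaction −1.64, −3.26 to −0.022). SOX9 and EPHB2, genes of the crypt base, had interactions of 0.48 (0.073 to 0.88) and −0.49.

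The lists not described above had 0 genes called in the interaction and the following responses. NRF2 targets had 9 of 26 genes higher in control cells and 7 in HIF1A-null cells, autophagy and lysosome genes 5 and 3 of 17, polyamine metabolism 6 and 5 of 13, ribosome biogenesis and MYC targets 8 and 8 of 26, and proliferation and DNA replication 5 and 5 of 39. Epithelial junctions had 6 and 7 of 27 higher, SR splicing factors 3 and 3 of 16, heat shock chaperones 3 and 1 of 14, metallothioneins and zinc transport 1 and 1 of 9, butyrate transport and sensing 2 and 1 of 8, and intestinal HIF2 and iron genes 3 and 1 of 12. Cholesterol synthesis had 4 and 4 of 25 higher and 3 and 5 lower, fatty acid synthesis 3 and 3 of 19 higher and 4 and 4 lower, and apolipoproteins and triglyceride assembly 0 and 0 of 14 higher and 1 and 1 lower. Intestinal stem and Wnt targets had 2 and 2 of 14 higher and 3 and 4 lower, coagulation factors 3 and 1 of 16 higher and 1 and 1 lower, and extracellular matrix genes 4 and 3 of 33 higher and 4 and 4 lower. For these counts the background is 2140 genes higher (17.0%) and 2253 lower (17.9%) in control cells, and 1853 higher (14.7%) and 1869 lower (14.9%) in HIF1A-null cells.

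Fewer genotype differences were called in 2D, with 3 libraries a line, than in HoxBan, with 6. Those in 2D were mostly among those in HoxBan. With monoculture or coculture alone as HoxBan, at 3 libraries a line, the counts lay near those in 2D, as given below. These numbers of calls therefore do not compare the size of the differences. In 2D 73 genes were higher and 78 lower in HIF1A-null cells (1.20% of genes tested, of which 0.581% higher and 0.621% lower), and in HoxBan 336 were higher and 324 lower (5.25%, of which 2.67% higher and 2.58% lower), a split of 458 higher and 243 lower with library size alone. Of the calls, 132 were shared, 87.4% of those in 2D and 20.0% of those in HoxBan, with 68 lower, 64 higher and 0 in opposite directions. Without control monoculture replicate 11, 416 genes were higher and 412 lower in HoxBan. With any 1 library left out, the 2D counts ran from 35 to 95 higher and from 35 to 94 lower, and leaving out any of the 6 libraries in 2D lowered at least 1 of these counts by more than 1.5 times. LAMA1, a laminin chain, had 160, 390 and 257 CPM in control 2D and 44.2 to 176 CPM in control HoxBan, and 670, 673 and 733 CPM in HIF1A-null 2D and 274 to 623 CPM in HIF1A-null HoxBan. HIF1A-null libraries lay above control libraries in each culture, and the interaction was 0.71 (−0.38 to 1.80).

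F. prausnitzii made no detectable difference to the interaction. The test of coculture against monoculture within the interaction called 0 of 12565 genes (0%) by edgeR, with 165 (1.31%) at an unadjusted p under 0.05, and 0 by DESeq2 and limma-voom, with 132 and 160. Here too the shares lay below the 0.05 that chance alone gives. IL18 had an interaction of 0.11 ± 0.39 log2 with monoculture alone and −0.32 ± 0.40 with coculture alone. For CXCL2 the values were 2.92 ± 1.71 and 0.91 ± 1.78, and for PFKFB3 −0.46 ± 0.43 and −1.16 ± 0.45.

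WT cells give a second control line, with 4 libraries in 2D and 3 in each HoxBan culture, fitted with the others in 28 libraries and 12849 genes. Their label is WT alone and does not say whether they carried Cas9 or a vector. Both interactions with WT share the WT libraries, the 9 control libraries enter HIF1A-null minus control and control minus WT with opposite sign, and that of HIF1A-null cells shares its own libraries with the comparison above. In WT cells 1594 genes rose and 2059 fell (28.4%). Of 1567 genes that rose in WT and were tested in the 18 libraries, 1187 also rose in control cells and 1081 in HIF1A-null cells, and of 2019 that fell 1516 and 1363 also fell. The interaction of HIF1A-null cells against WT called 0 genes (598 at an unadjusted p under 0.05 by edgeR, 608 by DESeq2 and 607 by limma-voom, 0 called by either). That of control cells against WT called 0 by edgeR (725 at an unadjusted p under 0.05), 11 by DESeq2 and 0 by limma-voom (691).

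The interactions with WT are given as values for gene lists and named genes. Of the HIF1 targets outside glycolysis, 2 rose and 6 fell in WT cells (median −0.23 log2), beside 12.4% and 16.0% of all genes. The median interaction of this list against WT was 0.65 in control cells and 0.67 in HIF1A-null cells, with 0 genes called. In the glycolysis list 1 gene rose and 1 fell in WT cells (median −0.021). Its medians against WT were 0.27 and 0.11. ANKRD37 had an interaction of 4.24 log2 in control cells against WT and 0.69 in HIF1A-null cells against WT, as it had 77.0, 8.51, 20.7 and 18.3 CPM in WT 2D, 7.08, 29.7 and 26.8 CPM in WT monoculture and 28.8, 18.8 and 20.5 CPM in WT coculture. Its response in WT cells was −0.50 log2 and did not pass, and 1 of the 4 WT 2D libraries was higher than every WT HoxBan library. The 2 values for HILPDA were 1.86 and 0.21, for BHLHE40 2.53 and 1.22, for ENO2 2.09 and 0.45, for PFKFB3 2.02 and 1.22, for FOS 3.39 and 1.45 and for CHAC1 1.93 and 0.72. DESeq2 called ANKRD37, HILPDA, BHLHE40, FOS, PFKFB3 and CHAC1 among its 11 genes for control cells against WT, whereas edgeR called none of them. For TNFAIP3 the values were −0.20 and 0.94, for TIPARP −0.069 and 0.65 and for PPARGC1B −0.84 and 0.39.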

How the data were processed

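RNA of Caco-2 cells was prepared with a QuantSeq 3′ kit. The authors deposited counts per Ensembl gene for 32 libraries, made on GRCh38 per the submitters' processing notes, and the aligner, counter, annotation and strand setting are unknown here, so overlapping or near-identical genes may share reads. The table has 60107 rows, 30677 with a count. Gene names were matched by identifier for 40995 rows and through GENCODE release 29 for 15536, which left 0.0679% of the counts unnamed. The 18 libraries held 4144373 to 6686797 counts without molecular identifiers, so counting precision covers counting error only.

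Counts were scaled by TMM, filtered by edgeR's filterByExpr (12565 genes) and fitted with edgeR's quasi-likelihood model of 6 group means (12 residual degrees of freedom, coefficient of variation 0.193). Monoculture and coculture weighed equally in HoxBan. A second fit of 28 libraries (12849 genes, 19 degrees of freedom, 0.201) added WT cells. Tests were two-sided, p-values were adjusted by Benjamini-Hochberg over all genes tested, and a gene is called, or said to rise or fall, at an adjusted p under 0.05. Intervals are 95%. Folds are log2. The steps were tested on simulated counts.

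The comparison and the 38 gene lists were chosen with earlier results of these data known. Genes were named as the 12 higher and 12 lower called genes with the smallest adjusted p, up to 4 members of each list with the smallest interaction p, HIF1A, EPAS1, EGLN1, EGLN2, EGLN3, HIF1AN, VHL, PGK1 and IL18, and up to 4 called genes with 3 or fewer counts in a group. The first and last parts named 0 genes. ADM, DDIT4, HK2, SLC2A3, VEGFA, PLOD2, BNIP3, P4HA1, LDHA and some others fall outside the rule and were chosen after their values were seen. Promoters came from RefSeq on GRCh38.p14. Alternatives were DESeq2, limma-voom, other scalings, no filter, no mitochondrial genes, 28 libraries in one fit, other HoxBan groupings and leaving out each library. Replicates are named by the library number. Tests ran in edgeR 4.0.16, DESeq2 1.42.0 and limma 3.58.1 under R 4.3.3, and summaries and plots in Python 3.11.15 (matplotlib 3.10.9, pandas 2.3.3, scipy 1.17.1, numpy 2.4.6).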

Additional observations from a re-analysis of the deposited data

Results flagged for a closer look

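Within groups of 4 to 6 libraries, 16 of 296 tested sets of levels (5.41%) held a library far from the others by Dixon's criterion, and chance alone gives about 1 in 20. Control monoculture replicate 11 was the lowest of the 6 control HoxBan libraries for HILPDA (40.9 CPM), DDIT4 (48.0 CPM) and HBEGF (90.9 CPM), genes that rose in HoxBan. HIF1A-null monoculture replicate 7 was the highest of its 6 for the NF-kB targets TNFAIP3 (138 CPM), NFKBIA (283 CPM) and CXCL2 (49.3 CPM). Among the other control HoxBan libraries, coculture replicate 22 was the highest for SHMT2 (96.4 CPM) and RPS12 (4546 CPM), and monoculture replicate 25 the lowest for COX7B (241 CPM) and LYZ (21.6 CPM). WT coculture replicate 3 was the highest of the WT HoxBan libraries for HILPDA (129 CPM) and RPS12 (5192 CPM). In WT 2D, replicate 12 was the lowest for HBEGF (8.86 CPM) and the highest for MT-ND4 (14556 CPM), replicate 27 was the lowest for CFLAR (54.9 CPM), and replicate 5 was the highest for HK2 (47.2 CPM). The cause of these values was not tested.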

How the results depend on the processing

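Without a filter on low counts, edgeR fitted 1 spread for nearly all genes and called more: 1 gene higher and 6 lower in the interaction, 158 higher and 186 lower between genotypes in 2D, 2 higher and 1 lower for coculture against monoculture, 34 higher and 1 lower for HIF1A-null cells against WT, and 58 higher and 5 lower for control cells against WT, where DESeq2 with the filter called 11 higher. With library size alone, the responses were 879 higher and 4145 lower in control cells and 906 higher and 3340 lower in HIF1A-null cells. With monoculture alone as HoxBan, 1368 genes fell in control cells and 1199 in HIF1A-null cells. The genotype difference in HoxBan called 67 higher and 80 lower with monoculture alone and 61 higher and 98 lower with coculture alone, each with 3 libraries a line in place of 6. Leaving out 1 library at a time gave 0 to 2 genes lower in the interaction, 1382 to 2177 higher in the control response, 1129 to 1950 higher in the HIF1A-null response, 35 to 95 higher and 35 to 94 lower between genotypes in 2D, and 0 to 14 higher for control cells against WT, of which the 2 and the 14 came without control monoculture replicate 11, and 5 and 1 without WT replicates 8 and 3. Of the 74 genes followed, 0 called values changed sign under any alternative. In the interaction 0 of them were called, so this says nothing of it. Interaction estimates changed sign for 7 genes under other settings and for 12 with 1 library left out. Under other settings calls were lost for 12 of 53 genes in the control response and 12 of 39 in the HIF1A-null response. The genotype difference in HoxBan lost calls for 16 of 30 genes. No paired analysis was possible because each library carries its own number and no number is shared between groups. Depth limits the interaction of genes under 5 CPM, for which 7.56% of intervals lay within 2-fold.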

Other observations

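After ANKRD37 and HILPDA, the smallest interaction p-values belonged to TRAK2 and CFLAR, genes chosen after their values were seen. TRAK2, an adaptor for the transport of mitochondria along microtubules, had 69.4, 88.2 and 74.0 CPM in control 2D and 22.3 to 30.6 CPM in control HoxBan, and 61.3, 54.5 and 59.6 CPM in HIF1A-null 2D and 26.7 to 42.9 CPM in HIF1A-null HoxBan. It fell by 1.53 on the log2 scale in control cells and by 0.70 in HIF1A-null cells, with an interaction of 0.83 (95% interval 0.39 to 1.27, unadjusted p = 0.000857 and adjusted p = 1.00, edgeR) that stayed between 0.72 and 0.90 with 1 library left out. CFLAR, an inhibitor of caspase 8, had 56.5 to 62.3 CPM in control 2D and 63.3 to 79.4 CPM in control HoxBan, and 52.3 to 58.8 CPM in HIF1A-null 2D and 37.8 to 46.2 CPM in HIF1A-null HoxBan. Its control response of 0.26 ± 0.12 log2 did not pass (adjusted p = 0.0908), it fell by 0.33 in HIF1A-null cells (adjusted p = 0.0377), and the interaction was −0.59 (−0.93 to −0.24, unadjusted p = 0.00193). All HoxBan libraries of HIF1A-null cells lay below all 9 control libraries for this gene.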
